A study of Mus musculus with 6 samples.

Results

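Inhibitory transmission was examined across 27 genes in injured mouse spinal motor neurons, from the receptors that GABA and glycine open to the transporters that set the chloride gradient. The 27 genes were a given list, matched by name to the rows of the count table, out of 53858 rows in all. They cover 11 GABA-A receptor subunits, 2 GABA-B receptor subunits, 4 glycine receptor subunits, 2 genes that build the inhibitory postsynapse (*Gphn*, *Nlgn2*), 3 chloride cotransporters, 2 glycine transporters and 3 genes of inhibitory nerve terminals (*Slc32a1*, *Gad1*, *Gad2*). Subunits and transporters outside this list are not analysed here.

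RNA was sequenced from pools of retrogradely labelled motor neurons of WT mice, collected on day 6 after sciatic nerve crush. All pools carried DiO, a green membrane dye placed proximal to the crush on day 0. Double-labelled pools (DiO+/DiI+, 3 libraries) also carried DiI, a red dye placed at a distal site on day 2, which reached neurons whose axons had grown that far. DiO-only pools (DiO+/DiI-, 3 libraries) lacked the distal dye. Each pool held 10 to 15 picked cells, so a library averages few neurons. The labels give no strain, age or sex and do not say whether different animals supplied the pools, so each p reflects the spread among these 6 libraries, part of which may be technical. No uninjured neurons were among the libraries, and "higher" or "lower" always compares injured cells with injured cells.

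As background, GABA-A and glycine receptors are chloride channels made of several subunits, and motor neurons receive both transmitters from local interneurons. Whether opening them inhibits depends on intracellular chloride. The cotransporter KCC2, encoded by *Slc12a5*, extrudes chloride, and NKCC1, encoded by *Slc12a2*, brings it in. Gephyrin, encoded by *Gphn*, anchors glycine receptors through their beta subunit and many GABA-A receptors at the synapse. In motor neurons, loss of KCC2 after axotomy is a known response to nerve injury.

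Total counts ran from 2997714 to 6563403 in double-labelled pools and from 3747145 to 6505086 in DiO-only pools, and 3 counts corresponded to 0.402 to 1.10 CPM (counts scaled to library size, with TMM factors, which correct for composition, unless stated). All 7 motor neuron markers were found in every library, though *Mnx1* had only 1 count in DiO-only pool 2. Their summed level overlapped, at 9353 to 13159 CPM in double-labelled pools and 8716 to 16906 CPM in DiO-only pools. Of the 7, 3 had a log2 fold change above 0, *Chat* among them, while *Isl1*, *Prph*, *Nefh* and *Mnx1* were below 0. *Chat*, of the enzyme that makes acetylcholine, was present in every library, at 101, 142 and 89.8 CPM in double-labelled pools and 73.7, 102 and 59.6 CPM in DiO-only pools. Double-labelled pools had fewer detected genes, 15657 to 16467 against 17229 to 22118 in DiO-only pools (two-sided exact permutation test, p = 0.1, which is the lowest value reachable with 3 pools per group). The summed oligodendrocyte RNA was higher in every double-labelled pool than in any DiO-only pool, and the summed astrocyte RNA overlapped. Of the single oligodendrocyte genes, *Mag* and *Cldn11* overlapped between the groups. The summed level of 10 oligodendrocyte markers was 1325 to 5608 CPM in double-labelled pools and 229 to 629 CPM in DiO-only pools (scaled to total counts, as are all marker sums), and that of 12 astrocyte markers was 994 to 2312 CPM in double-labelled pools and 983 to 1098 CPM in DiO-only pools. The astrocyte sum is mostly *Aldoc* and *S100b*, and 6 of the 12 astrocyte genes were higher in every double-labelled pool than in any DiO-only pool (*Slc1a2*, *Aqp4*, *Gja1*, *Atp1b2*, *Slc4a4* and *Fgfr3*). The same held for 5.86% of all tested genes. *Slc1a2*, of the glutamate transporter GLT-1, stood at 93.3, 39.9 and 84.7 CPM in double-labelled pools and at 10.6, 15.0 and 14.3 CPM in DiO-only pools. Of the 11 tested astrocyte genes, 9 had a log2 fold change above 0, as did all 10 oligodendrocyte genes and 51.3% of all tested genes. Double-labelled pools resembled each other less, with a mean correlation of log2 CPM across genes of 0.761 to 0.788 to the other pools of their group, against 0.877 to 0.896 for DiO-only pools. Each double-labelled pool had a higher mean correlation to the DiO-only pools, 0.789 to 0.846, than to its own group. In such pools, fewer cells of a type and less RNA per cell cannot be told apart.

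Of the 27 genes, 3 had fewer than 10 counts over all 6 libraries and were taken as not expressed. These were *Gabre* with 0 counts, *Gabrd* with 5 counts, all in double-labelled pool 2, and *Gabrq* with 5 counts, all in DiO-only pool 1. A further 9 genes had 12 to 575 counts but failed the filter on low counts and are given as values without a test. These were *Gabra3*, *Gabra4*, *Gabrb2*, *Glra2*, *Slc12a7*, *Slc6a5*, *Slc32a1*, *Gad1* and *Gad2*. The other 15 genes were tested.

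Several subunits of inhibitory receptors and the chloride extruder *Slc12a5* had higher mean levels in double-labelled pools, but no gene passed the correction for all genes. In edgeR's quasi-likelihood test, with p adjusted for 12954 tested genes by the Benjamini-Hochberg method, 0 of the 15 genes were under the threshold of 0.05, as were 0 of all tested genes (0.00%). The smallest adjusted p among the 15 was 0.617. DESeq2 called 76 genes and limma voom 0, with 0 of the 15 among them in either. Without adjustment 753 genes were under 0.05 in edgeR (5.81%). They included 5 of the 15 (33.3%), namely *Gabrg1*, *Slc12a5*, *Gabra2*, *Gabra5* and *Glra1*. All 5 were higher in double-labelled pools, where 3.18% of all tested genes were higher at that level and 2.63% lower. Of the 15, 11 had a log2 fold change above 0 (73.3%), against 51.3% of all tested genes, and the median was 0.53 against 0.02 for all tested genes. The 3 pools of each group did not overlap for 6 of the 15 (40.0%), against 12.9% of all tested genes. For *Gabra2*, *Gabra5*, *Gabrg1*, *Nlgn2* and *Slc12a5* the double-labelled pools were all higher (5.86% of all tested genes), and for *Glra3* all lower (7.07% of all tested genes). These counts cover only the genes that passed the filter, and the 12 genes without a test are outside them.

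**Figure D1:**
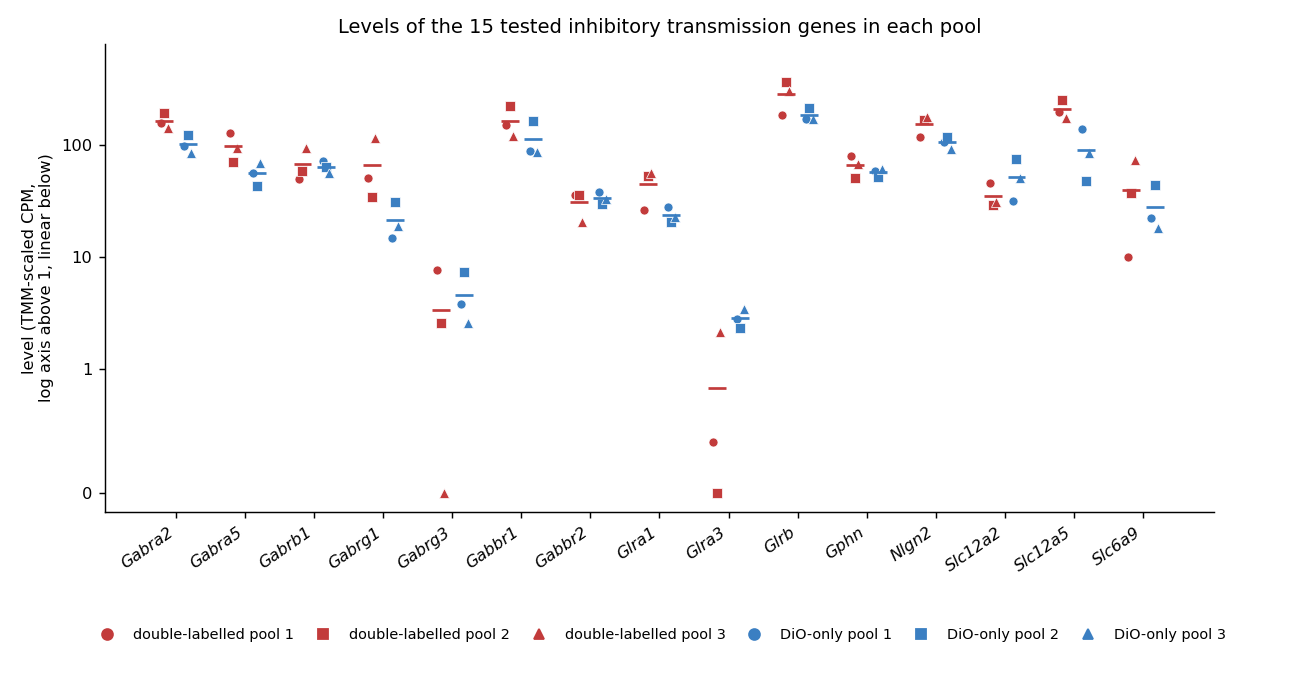
Level of each of the 15 tested genes (vertical axis, TMM-scaled CPM, logarithmic above 1 and linear below) in 3 double-labelled pools (red) and 3 DiO-only pools (blue). Points are single pools and lines are group means. *Glrb* has the highest mean in both groups, and *Slc12a5*, *Gabra2* and *Gabrg1* have no red point below a blue one.

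**Figure D2:**
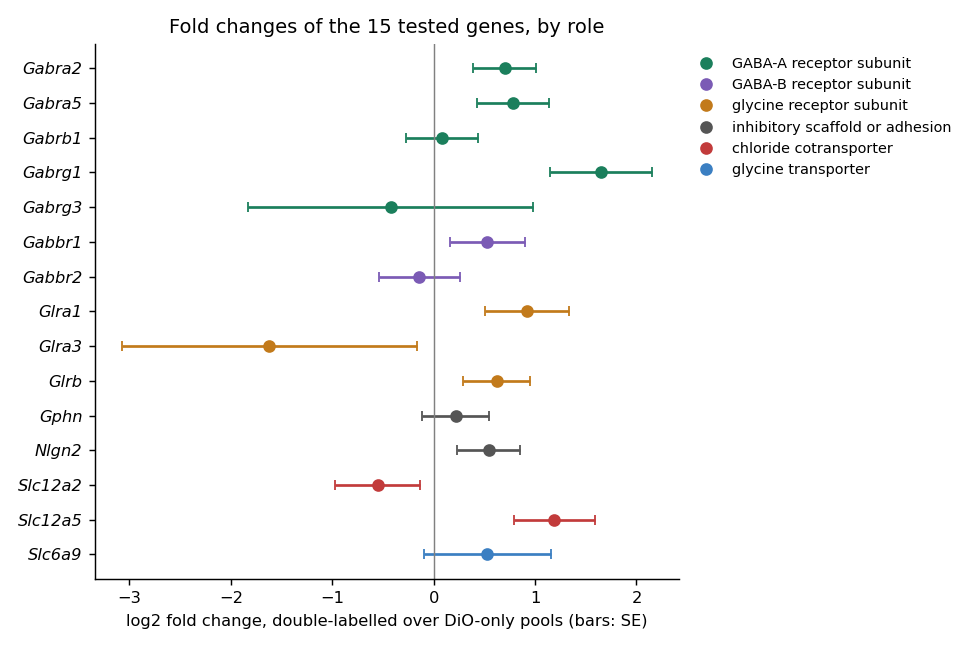
Log2 fold change of the 15 tested genes (horizontal axis, double-labelled over DiO-only pools), with bars of 1 standard error and colours by role. *Gabrg1* at 1.65 and *Slc12a5* at 1.19 lie farthest to the right, and *Glra3* at -1.62 has a standard error of 1.46.

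Among GABA-A receptor subunits, *Gabra2*, *Gabra5* and *Gabrg1* were higher in every double-labelled pool than in any DiO-only pool, while *Gabrb1* overlapped between the groups. *Gabra2*, of the alpha-2 subunit, a synaptic subunit prominent in motor neurons, stood at 159, 195 and 144 CPM in double-labelled pools and at 99.1, 123 and 84.4 CPM in DiO-only pools. All its double-labelled values lay above the DiO-only values. Its log2 fold change was 0.70 ± 0.31 (SE; edgeR unadjusted p = 0.0443, adjusted p = 0.834). The same separation held with RLE factors and with total counts.

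*Gabra5*, of the alpha-5 subunit that is found largely outside synapses, stood at 127, 70.3 and 94.7 CPM in double-labelled pools and at 56.5, 43.4 and 69.9 CPM in DiO-only pools. The lowest double-labelled and the highest DiO-only pool nearly touched, and the groups overlapped under total-count scaling. Its log2 fold change was 0.78 ± 0.35 (SE; edgeR unadjusted p = 0.0478, adjusted p = 0.851). The antisense gene *Gm9962* overlaps 5.0% of its exons, and reads there cannot be told apart without strand.

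*Gabrg1*, of the gamma-1 subunit, had the largest fold change of the 15. It stood at 51.0, 34.4 and 115 CPM in double-labelled pools and at 14.7, 30.7 and 19.1 CPM in DiO-only pools. Double-labelled pool 3 held 57.1% of all its counts, and pool 2 of that group was close to pool 2 of the DiO-only group. The log2 fold change was 1.65 ± 0.50 (SE; edgeR unadjusted p = 0.00715, adjusted p = 0.617). Without double-labelled pool 3 it was 1.00 ± 0.46, and the unadjusted p was no longer under 0.05 (edgeR unadjusted p = 0.0525, adjusted p = 0.554). Gamma-1 is also known from glia. Double-labelled pool 3 also had the highest oligodendrocyte marker sum, 5608 CPM. Of the astrocyte genes, it had the most *Gfap*, 123 CPM, *Atp1b2*, 99.6 CPM, *Fgfr3*, 43.1 CPM, *Aqp4*, 32.4 CPM, and *Gja1*, 25.9 CPM. *Slc1a2*, *Slc4a4*, *Gjb6* and *Aldoc* were instead highest in double-labelled pool 1. The first 3 of these stood there at 93.3, 32.7 and 42.7 CPM, against 84.7, 20.4 and 21.4 CPM in double-labelled pool 3. *Slc1a3* and *Aldh1l1* were highest in DiO-only pool 3, and *S100b* in DiO-only pool 2. The summed astrocyte level was 2312 CPM in double-labelled pool 1, where *Aldoc* alone stood at 1711 CPM with TMM factors, and 1668 CPM in double-labelled pool 3. The part of glial RNA in the *Gabrg1* difference was not tested.

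*Gabrb1*, of the beta-1 subunit, stood at 49.3, 58.2 and 94.9 CPM in double-labelled pools and at 72.2, 63.5 and 56.2 CPM in DiO-only pools, with overlapping groups. Its log2 fold change was 0.08 ± 0.35 (SE; edgeR adjusted p = 0.988), and -0.25 without double-labelled pool 3. *Gabrg3*, of the gamma-3 subunit, was low, with 37, 7 and 0 counts in double-labelled pools and 26, 22 and 15 counts in DiO-only pools. The groups overlapped, at a log2 fold change of -0.42 ± 1.40 (SE; edgeR adjusted p = 0.987).

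The remaining GABA-A subunits were near the counting floor and uneven. *Gabra3* had 2, 10 and 1 counts in double-labelled pools and 31, 7 and 9 counts in DiO-only pools. *Gabrb2* had 0, 22 and 0 counts in double-labelled pools and 38, 0 and 3 counts in DiO-only pools. Nearly all of its 63 counts thus came from a single pool of each group. *Gabra4* had 12 counts in all, 4 in double-labelled pool 3 and 8 in DiO-only pool 3.

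Per length of the gene model, *Gabra5* and *Gabra2* made up nearly all of the 4 alpha subunit transcripts on the list. *Gabra5* took 59.0 ± 10.5% of their summed per-length level in double-labelled pools and 56.9 ± 10.1% in DiO-only pools (SD, n = 3 each). *Gabra2* took 40.2 ± 9.56% in double-labelled pools and 40.7 ± 10.1% in DiO-only pools. Between the groups, both shares differed by less than the spread among pools. *Gabra3* and *Gabra4* together accounted for the small rest, with means of 0.698% and 0.0579% in double-labelled pools and 2.17% and 0.214% in DiO-only pools.

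*Gabrg1*, *Gabra2*, *Gabra4* and *Gabrb1* are neighbours on mouse chromosome 5, in this order, in a conserved cluster of receptor genes (GENCODE M21 on GRCm38, the assembly of mm10). *Gabrg1* (ENSMUSG00000001260) lies at 70751047 to 70842617, *Gabra2* (ENSMUSG00000000560) at 70957597 to 71095849 and *Gabra4* at 71569749 to 71658308, all on the minus strand, and *Gabrb1* at 71658113 to 72149037 on the plus strand. The log2 fold changes of the tested genes along the cluster were 1.65, 0.70 and 0.08, in the order *Gabrg1*, *Gabra2* and *Gabrb1*. Whether these differ from each other was not tested. The promoter windows of the adjacent *Gabrg1* and *Gabra2*, both higher in double-labelled pools, are shown because their composition differs. They are RefSeq windows on GRCm38.p6, 250 bases before to 50 bases after the annotated start, written along the gene's strand, with CpG pairs in capitals.

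*Gabrg1*, chr5:70842568-70842867, minus strand: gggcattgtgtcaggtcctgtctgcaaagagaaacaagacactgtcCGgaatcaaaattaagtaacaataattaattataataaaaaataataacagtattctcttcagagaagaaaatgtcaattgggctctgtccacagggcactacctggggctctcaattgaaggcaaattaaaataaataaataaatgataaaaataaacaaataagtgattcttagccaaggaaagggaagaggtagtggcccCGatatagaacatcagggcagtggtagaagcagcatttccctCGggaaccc
*Gabra2*, chr5:71095800-71096099, minus strand: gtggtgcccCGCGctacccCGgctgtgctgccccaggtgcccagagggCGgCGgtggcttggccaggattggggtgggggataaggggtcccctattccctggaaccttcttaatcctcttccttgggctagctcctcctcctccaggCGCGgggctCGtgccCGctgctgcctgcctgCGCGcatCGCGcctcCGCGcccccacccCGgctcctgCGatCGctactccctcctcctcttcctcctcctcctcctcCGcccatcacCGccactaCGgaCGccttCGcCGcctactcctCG

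The *Gabrg1* window held 3 CpG pairs at 38.3% G and C, and the *Gabra2* window 25 pairs at 70.0%, against medians of 7 pairs and 52.7% over 32851 windows of this length. RefSeq windows were matched for 24 of the 27 genes, 33 windows in all.

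GABA-B receptors are G protein-coupled and need both of their subunits. *Gabbr1*, of the subunit that binds GABA, stood at 150.0, 222 and 119.7 CPM in double-labelled pools and at 89.4, 164 and 87.6 CPM in DiO-only pools. DiO-only pool 2 lay above the other 2 pools of its group and inside the double-labelled range. The groups also overlapped with RLE factors but not under total-count scaling. *Gabbr1* had a log2 fold change of 0.53 ± 0.37 (SE; edgeR adjusted p = 0.952). *Gabbr2*, of the subunit that couples to the G protein, stood at 36.0, 35.9 and 20.4 CPM in double-labelled pools and at 38.5, 29.7 and 33.2 CPM in DiO-only pools, with overlapping groups. *Gabbr2* had a log2 fold change of -0.14 ± 0.40 (SE; edgeR adjusted p = 0.987), and 0.09 without double-labelled pool 3. Per length, *Gabbr1* exceeded *Gabbr2* by a factor of 3.59 to 5.33 in double-labelled pools and of 2.00 to 4.75 in DiO-only pools.

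Glycine receptors were represented by the adult pair of *Glra1* and *Glrb*, both higher on average in double-labelled pools with overlapping groups. *Glra1* (ENSMUSG00000000263; chromosome 11, 55514238 to 55608198, minus strand) encodes the alpha-1 subunit, which is mutated in inherited startle disease. It stood at 26.3, 53.4 and 56.3 CPM in double-labelled pools and at 28.2, 20.7 and 22.9 CPM in DiO-only pools. Double-labelled pools 2 and 3 lay above all DiO-only pools and pool 1 lay within them. Its log2 fold change was 0.92 ± 0.42 (SE; edgeR unadjusted p = 0.0493, adjusted p = 0.858). Without double-labelled pool 1 it was 1.20 ± 0.36 (edgeR unadjusted p = 0.00850, adjusted p = 0.545). That was the only 1 of the 6 fits without a library with an unadjusted p under 0.05. The lowest fold change of the 6 was 0.73 ± 0.45, without double-labelled pool 3 (edgeR unadjusted p = 0.136). The antisense gene *Gm12236* overlaps 5.8% of its exons.

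*Glrb* (ENSMUSG00000028020; chromosome 3, 80843599 to 80913660, minus strand) encodes the beta subunit that binds gephyrin. It stood at 184, 369 and 303 CPM in double-labelled pools and at 171, 215 and 170.5 CPM in DiO-only pools. Here too double-labelled pools 2 and 3 were above every DiO-only pool and pool 1 was inside their range. *Glrb* had a log2 fold change of 0.62 ± 0.33 (SE; edgeR unadjusted p = 0.0863, adjusted p = 0.885). Per length, *Glra1* was at 0.276 to 0.358 of the level of *Glrb* in double-labelled pools and at 0.186 to 0.317 in DiO-only pools, which overlap.

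The other glycine receptor alpha subunits were scarce. *Glra3*, of the alpha-3 subunit, had 2, 0 and 16 counts in double-labelled pools and 19, 7 and 20 counts in DiO-only pools. In CPM its groups did not overlap, with 0.411, 0 and 2.14 CPM in double-labelled pools and 2.77, 2.34 and 3.44 CPM in DiO-only pools, but they overlapped under total-count scaling. Its log2 fold change of -1.62 ± 1.46 (SE; edgeR adjusted p = 0.970) was close in size to its standard error. *Glra2*, of the alpha-2 subunit that prevails in the embryo, had 0, 0 and 16 counts in double-labelled pools and 4, 0 and 4 counts in DiO-only pools. *Glra1* made up 98.6 ± 2.07% of the summed per-length level of the 3 alpha genes in double-labelled pools and 95.7 ± 1.52% in DiO-only pools (SD, n = 3 each).

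At the postsynaptic scaffold, the gephyrin gene *Gphn* overlapped between the groups. It stood at 80.1, 50.5 and 68.1 CPM in double-labelled pools and at 58.5, 51.4 and 61.0 CPM in DiO-only pools, so that the DiO-only values lay inside the double-labelled range. *Gphn* had a log2 fold change of 0.22 ± 0.33 (SE; edgeR adjusted p = 0.980). The opposite-strand gene *Gm48226* overlaps 3.9% of its exons. *Nlgn2*, of the adhesion protein neuroligin-2 at inhibitory synapses, stood at 117.33, 167 and 178 CPM in double-labelled pools and at 108, 117.26 and 93.0 CPM in DiO-only pools. Its groups nearly touched, and they overlapped with RLE factors. *Nlgn2* had a log2 fold change of 0.54 ± 0.31 (SE; edgeR unadjusted p = 0.107, adjusted p = 0.899).

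The means of the 2 tested chloride cotransporters differed in opposite directions, and neither passed the correction. *Slc12a5*, of the neuronal extruder KCC2 (ENSMUSG00000017740; chromosome 2, 164960802 to 164999731, plus strand), stood at 198, 253 and 174 CPM in double-labelled pools. In DiO-only pools it stood at 141, 47.8 and 84.5 CPM. All double-labelled pools lay above all DiO-only pools, also with RLE factors and with total counts. For *Slc12a5* the log2 fold change was 1.19 ± 0.40 (SE; edgeR unadjusted p = 0.0122, adjusted p = 0.675). It was the only gene of the 15 with an unadjusted p under 0.05 in all 13 alternatives, with log2 fold changes of 0.90 to 1.65 and adjusted p of 0.238 to 1.00. By comparison, an unadjusted p under 0.05 was found for *Gabrg1* in 12 of the 13, *Gabra2* in 8, *Gabra5* in 6 and *Glra1* in 5.

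*Slc12a2*, of the chloride importer NKCC1, stood at 46.0, 29.3 and 31.0 CPM in double-labelled pools and at 31.4, 74.8 and 50.3 CPM in DiO-only pools. DiO-only pool 1 lay inside the double-labelled range and the other DiO-only pools above it. For *Slc12a2* the log2 fold change was -0.55 ± 0.42 (SE; edgeR adjusted p = 0.957) and below 0 in all 13 alternatives, but it did not pass. NKCC1 is made by glia as well as neurons. *Slc12a7*, of the extruder KCC4, had 0, 7 and 0 counts in double-labelled pools and 0, 2 and 7 counts in DiO-only pools.

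Within each pool, the per-length level of *Slc12a5* was 6.31, 12.6 and 8.23 times that of *Slc12a2* in double-labelled pools and 6.57, 0.936 and 2.46 times in DiO-only pools. DiO-only pool 1 had a ratio like that of double-labelled pools, and DiO-only pool 2 was the only pool in which *Slc12a2* exceeded *Slc12a5*. The mean log2 ratio of counts differed by 1.81 between double-labelled and DiO-only pools. This difference was 2.51 without DiO-only pool 1 and 1.11 without DiO-only pool 2, and it was not tested.

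**Figure D3:**
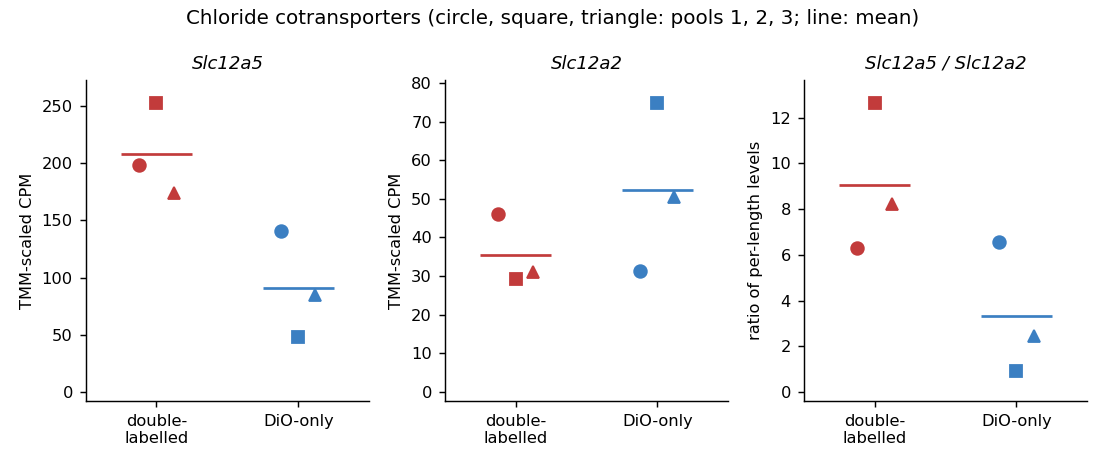
TMM-scaled CPM of *Slc12a5* and *Slc12a2* and the ratio of their per-length levels, in 3 double-labelled pools (left, red) and 3 DiO-only pools (right, blue). Points are pools and lines are means. *Slc12a5* is at 174 to 253 CPM in double-labelled pools and at 47.8 to 141 CPM in DiO-only pools, and the ratio of DiO-only pool 1, 6.57, lies among the double-labelled pools.

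RefSeq gives *Slc12a5* promoter windows for 2 start sites, which serve transcripts with different first exons. Both are shown because *Slc12a5* kept its unadjusted p under 0.05 in all alternatives, with matches to the AP-1 motif TGANTCA, bound by Jun and Atf3 family factors, in capitals.

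*Slc12a5* upstream start, chr2:164960596-164960895, plus strand: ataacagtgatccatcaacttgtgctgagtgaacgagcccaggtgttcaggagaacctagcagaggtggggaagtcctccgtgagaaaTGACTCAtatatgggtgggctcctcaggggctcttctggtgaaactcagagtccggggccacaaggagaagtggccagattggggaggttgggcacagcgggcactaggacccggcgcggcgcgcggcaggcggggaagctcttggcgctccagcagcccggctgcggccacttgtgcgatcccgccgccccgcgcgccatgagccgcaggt
*Slc12a5* downstream start, chr2:164967738-164968037, plus strand: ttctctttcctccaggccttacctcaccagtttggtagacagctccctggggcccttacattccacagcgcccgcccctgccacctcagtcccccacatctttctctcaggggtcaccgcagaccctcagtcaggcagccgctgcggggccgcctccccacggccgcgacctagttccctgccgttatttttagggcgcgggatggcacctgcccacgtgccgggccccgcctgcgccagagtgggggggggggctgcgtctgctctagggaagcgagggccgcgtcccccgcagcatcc

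The upstream window held 1 match, beginning 162 bases before the start, and the downstream window 0. On both strands, 7.81% of all 32851 windows held this motif. Among the other matched genes of the list, only *Slc6a5* had a window with it, beginning 191 bases before the start. The cyclic AMP response element TGACGTCA was found in 1.79% of all windows and the EGR motif GCGNGGGCG in 5.55%, and neither *Slc12a5* window held them. Counts per gene do not tell transcripts of the starts apart.

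Glycine transporters and the genes of inhibitory terminals were uneven among the pools. *Slc6a9*, of GlyT1, which in the spinal cord is mainly made by glia, stood at 10.1, 37.3 and 73.0 CPM in double-labelled pools and at 22.2, 44.1 and 18.0 CPM in DiO-only pools. Both the lowest and the highest pool were double-labelled. For *Slc6a9* the log2 fold change was 0.53 ± 0.63 (SE; edgeR adjusted p = 0.978), and -0.25 without double-labelled pool 3, which held 50.2% of the counts. Exons of *Ccdc24*, on the opposite strand, cover 27.8% of the *Slc6a9* exons, and whether the counting used strand is not given, so reads there cannot be told apart. The part of glial RNA in the *Slc6a9* values was not tested.

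**Figure D4:**
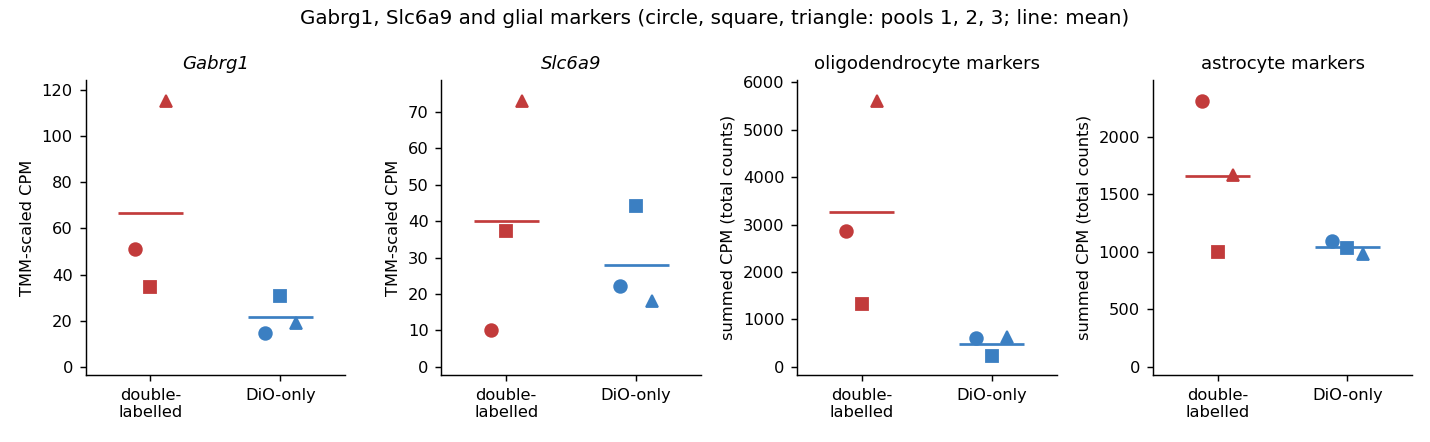
*Gabrg1* and *Slc6a9* (TMM-scaled CPM) beside the summed CPM of 10 oligodendrocyte and 12 astrocyte markers (scaled to total counts), in 3 double-labelled pools (left, red) and 3 DiO-only pools (right, blue). Points are pools and lines are means. Double-labelled pool 3 (triangle) is highest for *Gabrg1*, *Slc6a9* and the oligodendrocyte markers, and double-labelled pool 1 (circle) for the astrocyte sum, in which *Aldoc* alone stands at 1711 TMM-scaled CPM there.

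*Slc6a5*, of GlyT2, the transporter of glycinergic nerve cells (ENSMUSG00000039728; chromosome 7, 49910146 to 49963856, plus strand), came almost wholly from a single library. It had 28, 2 and 0 counts in double-labelled pools and 7, 0 and 538 counts in DiO-only pools, where pool 3 thus held 93.6% of all its counts. *Slc32a1*, of the vesicular transporter that loads GABA and glycine, had 6, 2 and 0 counts in double-labelled pools and 7, 0 and 74 counts in DiO-only pools, again mostly in DiO-only pool 3 (83.1%). Group means of both genes therefore rest on that pool and were not compared. The antisense gene *Gm14205* overlaps 24.9% of the *Slc32a1* exons.

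*Gad1* and *Gad2*, of the enzymes that make GABA, did not share this pattern. *Gad1* had 17, 0 and 0 counts in double-labelled pools and 14, 3 and 6 counts in DiO-only pools. *Gad2* had 23, 0 and 3 counts in double-labelled pools and 8, 1 and 0 counts in DiO-only pools. Double-labelled pool 1 had the most of both, and DiO-only pool 3, with the most *Slc6a5*, had 6 and 0 counts.

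Other markers of inhibitory interneurons were read in the same pools. DiO-only pool 3 was the only library with counts for all 9 of them, while 4 were at 0 in each double-labelled pool and 2 in each of DiO-only pools 1 and 2. In that pool the transcription factor genes *Lhx1*, *Lhx5*, *Gata3* and *Pax2* stood at 4.12, 1.55, 1.03 and 0.516 CPM, and none exceeded 1.17 CPM in any other pool. *Pvalb* and *Calb2* were also highest there, at 46.9 and 256 CPM. The next highest pools were DiO-only pool 1 for *Pvalb*, at 27.7 CPM, and double-labelled pool 3 for *Calb2*, at 223 CPM. *Sst* and *Npy* were highest in DiO-only pool 2, *Sst* at 105 CPM against 3.95 CPM in DiO-only pool 3. *Pnoc* was highest in double-labelled pool 2, at 8.05 CPM against 0.516 CPM in DiO-only pool 3. The summed level of the 9 ran from 66.9 to 283 CPM in double-labelled pools and from 102.5 to 4855 CPM in DiO-only pools. *Npy*, which injured neurons can also make, had 17805 counts in DiO-only pool 2 and set that highest sum. Broad detection in DiO-only pool 3 was not particular to this list, as that pool had the most detected genes, 22118. It alone had counts for all 6 endothelial or pericyte markers, with a sum of 34.6 CPM against 1.33 to 8.54 CPM elsewhere. Of 6 excitatory interneuron markers, 2 were at 0 there and 3 to 5 in the other pools, but their sum was highest in DiO-only pool 1. Without DiO-only pool 3 the log2 fold changes were 1.57 for *Gabrg1*, 1.14 for *Slc12a5*, 0.58 for *Gabra2*, 0.96 for *Gabra5* and 0.89 for *Glra1*. Their edgeR unadjusted p values, in the same order, were 0.0274, 0.0421, 0.161, 0.0498 and 0.119. These 5 are the genes that had an unadjusted p under 0.05 with all libraries. The part of interneuron RNA in the receptor results was not tested.

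**Figure D5:**
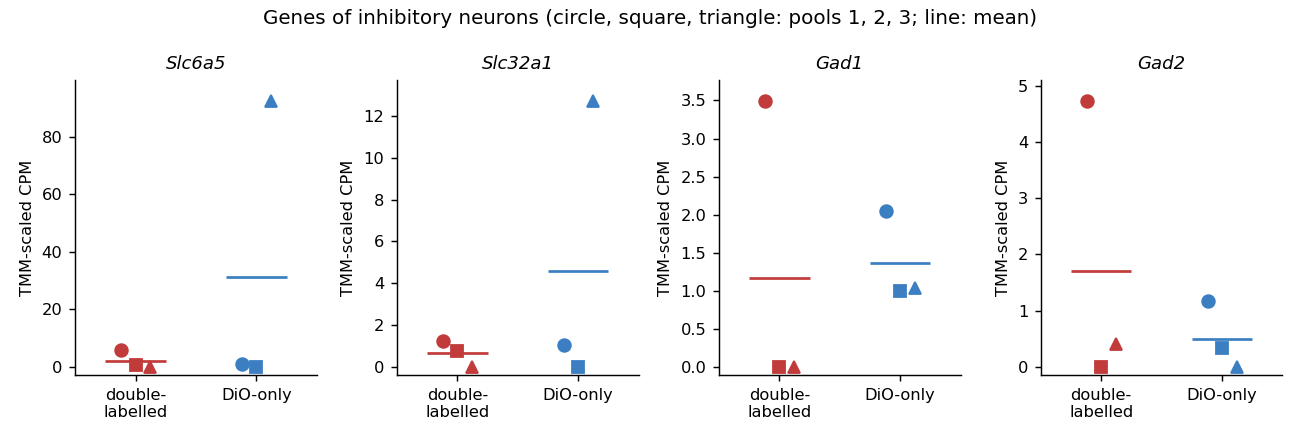
TMM-scaled CPM of 4 genes of inhibitory neurons in 3 double-labelled pools (left, red) and 3 DiO-only pools (right, blue), each panel with its own axis. Points are pools and lines are means. DiO-only pool 3 (triangle) stands at 92.4 CPM for *Slc6a5* and 12.7 CPM for *Slc32a1*, while double-labelled pool 1 (circle) is highest for *Gad1* and *Gad2*.

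Per length of the gene model, *Glrb* had the highest mean level of the 27 genes in both groups, 138 ± 61.9 TPM in double-labelled pools and 88.2 ± 15.7 TPM in DiO-only pools (SD, n = 3 each; counts over exon length, scaled to the same sum in each library, without TMM factors). *Gabra5* followed with 73.6 ± 29.1 TPM in double-labelled pools and 45.0 ± 21.4 TPM in DiO-only pools, and *Nlgn2* with 61.2 ± 29.4 TPM in double-labelled pools and 40.7 ± 8.46 TPM in DiO-only pools. *Slc12a5* had rank 4 in double-labelled pools, at 60.5 ± 10.3, and rank 6 in DiO-only pools, at 29.5 ± 18.9. Most neighbours in this order lay within each other's spread. *Gabrb1*, at 11.7 ± 8.04 TPM in double-labelled pools and 10.5 ± 3.11 TPM in DiO-only pools, was well below the leading alpha subunits. *Gabrg1*, at 21.6 ± 20.3 TPM in double-labelled pools and 5.79 ± 1.01 TPM in DiO-only pools, had a higher mean than *Gabrb1* in double-labelled pools and a lower one in DiO-only pools. Its double-labelled SD was nearly as large as its mean.

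Further genes of the pathway, from a separate list of 41, gave 0 calls. Of these, 28 were tested and none passed in edgeR (adjusted p of 0.742 to 0.999). At an unadjusted p under 0.05 there was 1 gene, lower in double-labelled pools (3.57%), against 2.63% of all tested genes in that direction. That gene was *Slc12a3*, of the sodium-chloride cotransporter best known from the kidney, at 0.616, 6.59 and 6.43 CPM in double-labelled pools and 16.3, 25.1 and 15.8 CPM in DiO-only pools (edgeR log2 fold change -2.07 ± 0.81 as SE, adjusted p = 0.742). The median log2 fold change of the 28 was 0.18, against 0.02 for all tested genes, with 19 above 0 (67.9%, against 51.3%). The groups did not overlap for 3 of the 28 (10.7%, against 12.9%).

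The next genes by p were *Mdga1*, *Stk39* and *Gabarapl1*, all lower on average in double-labelled pools without passing. *Mdga1*, whose product binds neuroligin-2, stood at 3.29, 0 and 4.29 CPM in double-labelled pools and 8.46, 6.68 and 17.2 CPM in DiO-only pools (edgeR adjusted p = 0.885). *Stk39*, of the kinase SPAK, which phosphorylates chloride cotransporters, stood at 161, 224 and 159.6 CPM in double-labelled pools and 219, 337 and 222 CPM in DiO-only pools, with a log2 fold change of -0.52 ± 0.32 (SE; edgeR adjusted p = 0.929). *Gabarapl1*, of a relative of the GABA-A receptor-associated protein, stood at 201, 246 and 271 CPM in double-labelled pools and 235, 488 and 311 CPM in DiO-only pools (edgeR adjusted p = 0.937).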

How the data were processed

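RNA came from 6 pools of picked motor neurons. Their cDNA was made by SMART-Seq HT and passed through 20 PCR cycles, per the labels' protocols, which name no molecular identifiers, so counting limits cover counting error only. The deposited values are raw read counts per gene, made by the authors with HISAT2 and HTSeq on mm10, per the submitters' processing notes. Tool versions, the annotation and the strand setting are not given there. Libraries were grouped by dye label, and none was left out. Replicate numbers were not treated as pairs.

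Genes were filtered with filterByExpr in edgeR 4.0.16 (R 4.3.3), which kept 12954 genes with 99.2% of counts, then scaled with TMM. Groups were compared by edgeR's quasi-likelihood F-test with robust dispersion, with Benjamini-Hochberg adjustment over all tested genes and a threshold of 0.05. The tests were checked on simulated counts. Each standard error is the fold change divided by the root of F. Per-length levels use exon unions of GENCODE M21, which matched all 53858 rows. The log2 cotransporter ratio used counts with 0.5 added.

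Alternatives were RLE factors, total counts, no filter, at least 10 counts in 5 libraries, DESeq2 1.42.0, limma 3.58.1 voom with quality weights, a replicate block and leaving out each library. All 27 list genes are named; of 41 other pathway genes the 4 of smallest p are. The genes, lists and tests were chosen with earlier results of these data known. The glial and interneuron markers named singly were chosen after their values were seen. Motifs were searched on both strands. Figures were drawn with matplotlib 3.10.9.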

Additional observations from a re-analysis of the deposited data

How the results depend on the processing

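No tested member passed an adjusted p of 0.05 in any of the 13 alternatives, where the lowest adjusted p was 0.0924, for *Gabrg1* without a filter on low counts. Over all genes, the count of calls was 79 without that filter, 76 with DESeq2 and 23 with the replicate block, against 0 in edgeR, where 753 genes had an unadjusted p under 0.05. The members higher at an unadjusted p under 0.05, 5 in the edgeR fit, were 3 with total counts, 2 without the filter, 6 with limma voom and 2 to 5 when a library was left out (2 without double-labelled pool 3 or DiO-only pool 1). Direction was kept in every alternative by 11 of 15 members, with *Gabrg3* and *Glra3* not fitted under the stricter filter. *Gabrb1* turned to -0.0040 with limma voom and to between -0.25 and 0.26 when a library was left out, *Gabrg3* ranged from -1.96 to 0.18, *Gabbr2* from -0.28 to 0.0851 and *Slc6a9* from -0.25 to 1.01. The cause was not tested. The members' median ran from 0.37 to 0.64 over those fits, and the difference between the groups in mean log2 cotransporter ratio from 1.11 to 2.51.

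Same-numbered pools had correlations of their deviations from the group means of 0.0742, 0.228 and 0.203, each the highest for its pool. With 3 pools per group few matchings are possible, so these values cannot decide whether the numbers mark pairs. The labels speak of 3 batches of libraries but do not say which libraries shared one or that the numbers mark them. With the replicate block, 5 members were higher with an unadjusted p below 0.05, *Glrb* now among them (edgeR adjusted p = 0.574) and *Glra1* no longer (edgeR adjusted p = 0.653), and the median of the tested members was 0.52. At these depths 3 counts are 0.402 to 1.10 CPM, so differences in members with a few counts per pool were not detectable, and single values carry counting error as well as the spread of small pools.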
